A study of Canis lupus familiaris with 18 samples.

Results

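The genes described here had more reads in endothelial cells of both veins than in endothelial cells of the aorta. In smooth muscle cells, their mean levels in aorta and veins lay within a set limit of each other. They were chosen by measured values. A gene was taken when its lowest level in the 6 venous endothelial samples was at least 5 CPM (the count divided by the sample's total count and scaled to 1000000) and at least 1.5 times its highest level in the 3 aortic endothelial samples. In addition, the ratio of the mean aortic to the mean venous level in smooth muscle cells, with 1 CPM added to each, had to lie within a factor of 1.5 of equality, and genes restricted to endothelial cells (at least 5 CPM in every endothelial and under 2 CPM in every smooth muscle sample) were left out. Of the 24580 genes in the table, 8216 reached 5 CPM in every venous endothelial sample, and 25 of these passed the endothelial part of the rule. The limit on smooth muscle cells removed 6, of which 5 were higher in veins and 1 was higher in the aorta there, and the restriction removed 0. This left 19 genes, which are numbered from 1 to 19 by falling ratio of the lowest venous to the highest aortic level. The same rule with aorta and veins exchanged gave 86 genes.

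Canine primary endothelial cells (CaPECs) and vascular smooth muscle cells (VSMCs) were grown from abdominal aorta, portal vein (vena porta), and vena cava of healthy male dogs of about a year of age. Polyadenylated RNA was sequenced at the third passage, and every combination of cell type and vessel had 3 samples. Dogs of a separate pacemaker study supplied the vessels after death, and the cultures carried no genetic change or treatment in the labels. CaPECs grew on gelatin in an endothelial growth medium and VSMCs in a serum medium, so that cell type and medium cannot be told apart. Samples 1 to 3 of CaPECs were read as coming from dogs 1 to 3. For VSMCs the headings give a number of the isolation, so VSMC samples are called by isolation, numbered 1 to 3 here, and whether CaPECs and VSMCs of 1 number share a dog was not given.

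Arteries and veins carry blood at different pressure and oxygen content, and their endothelium is specified early in development. Notch signalling and ephrin ligands mark arterial endothelium, whereas the nuclear receptor COUP-TFII and ephrin receptors mark venous endothelium. Whether any of these regulators is among the 19 genes could not be examined, because the table gives Ensembl identifiers without symbols and 0 of the identifiers matched the gene table at hand. For the same reason, the label of the cells as endothelial or smooth muscle was not checked against markers, and the members are given by number.

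The total count was 6020932 to 13422177 in CaPECs and 7341227 to 15746769 in VSMCs. CaPECs from vena cava 1 and 3 stood apart from the others. The 12 genes that set CaPECs apart from VSMCs most clearly (at least 20 CPM in every CaPEC sample and a VSMC mean at most a 20th of the CaPEC mean) summed to 2407 CPM and 2414 CPM in these samples, and to between 5146 CPM and 8883 CPM in the other 7. All 12 had counts in every CaPEC sample. The 17 genes of the opposite kind, which include 1 of the members, summed to between 360 and 567 CPM in aortic CaPECs and between 325 and 1570 CPM in venous ones, where vena cava 3 had the highest sum, at 5.30% of the VSMC median. Between 0 and 3 of the 17 had no count in a CaPEC sample. In such bulk samples, fewer cells of a type and less RNA per cell cannot be told apart, and the part of either list in the results was not tested.

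The members differed widely in how far the veins lay above the aorta. The mean of the 6 venous samples was between 1.88 and 27.9 times the mean of the 3 aortic ones, with a median of 3.94, and the highest value rested on 1 culture. The venous mean was at least 3 times the aortic mean in 12 members. By the stricter ratio of the rule, which compares the lowest venous with the highest aortic sample, 5 members reached 2. These values chose the members and are given as a description. The last members inside the rule had ratios of 1.51 in both, with lowest venous levels of 81.2 and 34.4 CPM, and the nearest genes outside it had 1.49 and 1.46.

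**Figure D1:**
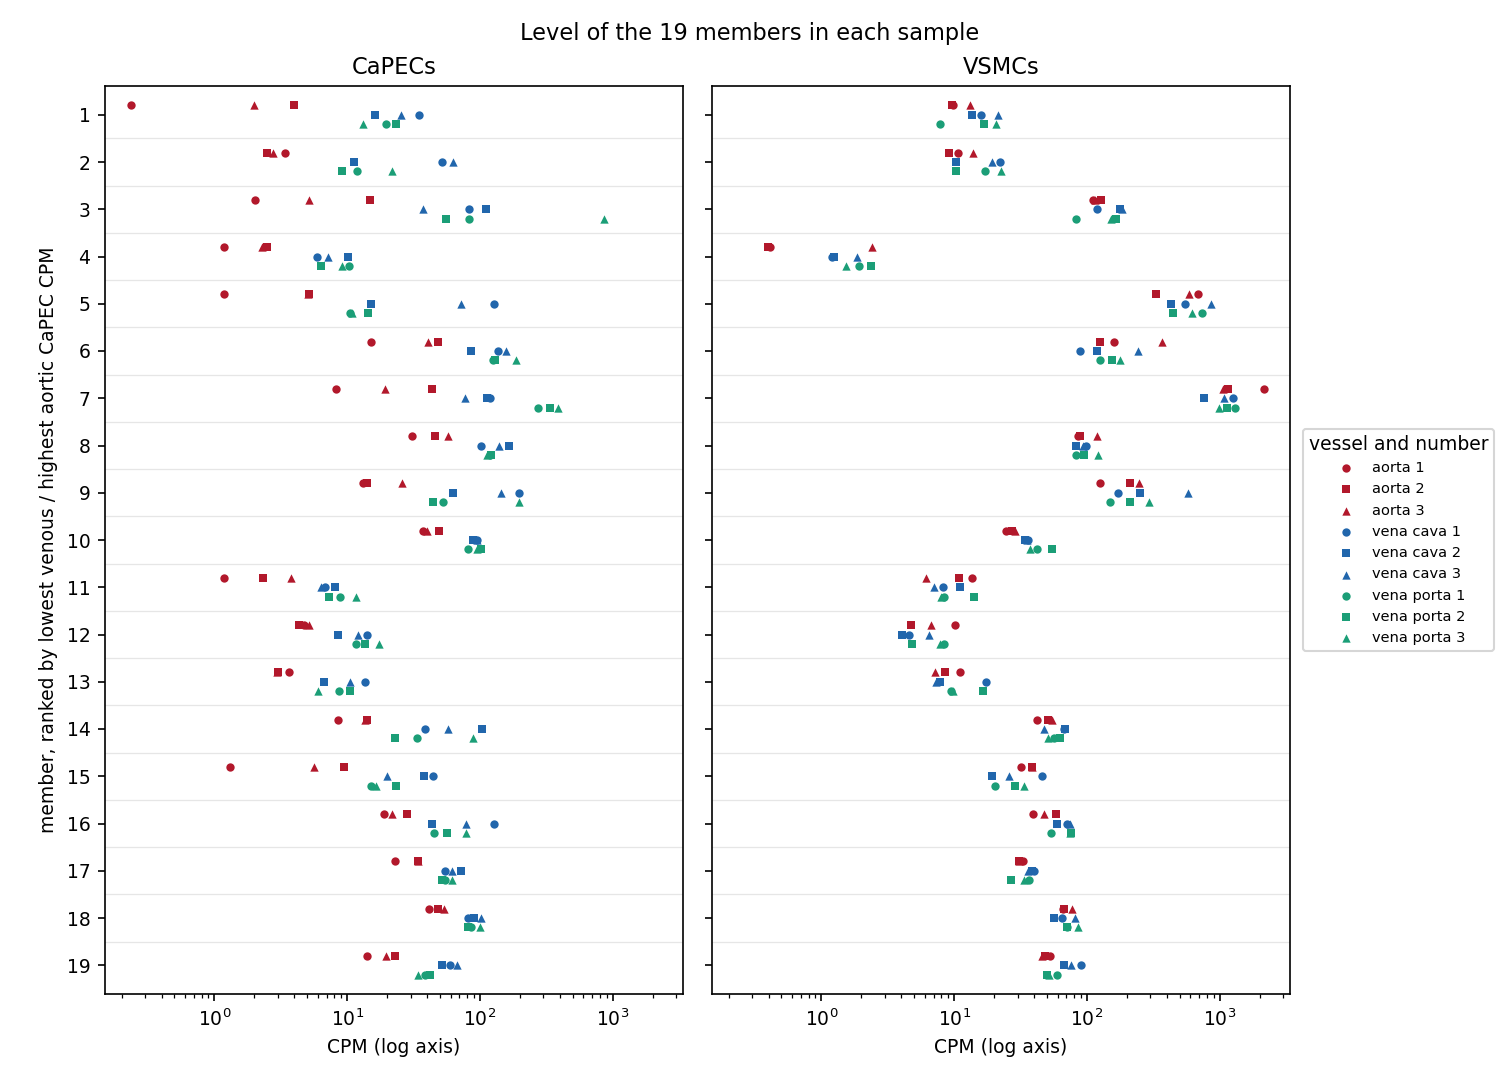
Level of each of the 19 members in the 9 CaPEC samples (left) and the 9 VSMC samples (right), in CPM on a log axis, with the members ranked from 1 to 19 by the ratio of the lowest venous to the highest aortic CaPEC level. Points are single samples, coloured by vessel and shaped by sample number, and in CaPECs every red aortic point lies left of every venous point, which the rule fixes.

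Member 1, ENSCAFG00000010680, had the highest ratio, at 3.32. In CaPECs of dogs 1, 2, and 3 it was at 0.236, 3.99, and 1.982 CPM in the aorta. Its vena cava samples were at 34.7, 16.05, and 25.6 CPM, and its vena porta samples at 19.4, 23.3, and 13.2 CPM. The aorta of dog 1 was far below the others, on 2 counts (exact Poisson 95% interval 0.242 to 7.225 counts), while the lowest venous sample had 106. Such intervals cover counting error only, since reads carried no molecular identifiers. VSMCs held 14.2 ± 4.76 CPM (SD, n = 9), between the aortic and the venous CaPECs.

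Member 2, ENSCAFG00000010169, was even among the aortic CaPECs, at 3.43, 2.49, and 2.77 CPM, and uneven among the venous ones. The vena cava samples were at 51.6, 11.2, and 62.3 CPM and the vena porta samples at 11.8, 9.08, and 21.9 CPM, so that dogs 1 and 3 were high in the vena cava and dog 2 was not. VSMCs ranged from 9.17 to 22.5 CPM, with the veins at 1.85, 1.12, and 1.51 times the aorta in isolations 1, 2, and 3. Only the added 1 CPM brought the ratio of VSMC means within the limit of the rule.

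Member 3 had the largest ratio of means, 27.9, with 1 culture far above the others, and the ratio was 10.1 without that culture, vena porta 3. The aortic samples were at 2.01, 14.8, and 5.15 CPM, the vena cava samples at 82.2, 111, and 37.4 CPM, and the vena porta samples at 82.7, 55.1, and 855 CPM. With vena porta 3 at the top, the venous samples spanned a factor of 22.8, with a median of 82.5 CPM. That all of them lay above every aortic sample was fixed by the rule.

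Member 4 was the only one near the lower limit of detection in VSMCs. It was at 1.984 ± 0.703 CPM in aortic CaPECs (SD, n = 3), at 8.15 ± 1.94 CPM in venous CaPECs (SD, n = 6), and at 1.48 ± 0.739 CPM in VSMCs (SD, n = 9). The mean in venous CaPECs was thus 5.51 times that in VSMCs, and it was the only member with any VSMC sample below 2 CPM. The venous VSMCs were at 3.79, 4.49, and 0.707 times the aortic ones in isolations 1, 2, and 3. As for member 2, only the added 1 CPM brought this gene within the limit on VSMCs, which says little at this level.

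Members 5 and 7, by contrast, were higher in every VSMC sample than in any CaPEC sample. Member 5 was at 1.18, 5.15, and 5.05 CPM in aortic CaPECs, at 127, 15.2, and 71.9 CPM in the vena cava, and at 10.4, 14.3, and 10.9 CPM in the vena porta. In VSMCs it was at 333 to 860 CPM (median 586), 13.97 times the mean of venous CaPECs, and it is the member among the 17 genes that set VSMCs apart. Its high CaPEC samples, vena cava 1 and 3, had 870 and 1499 CPM for the sum of the other genes of this list. The vena porta samples of dogs 2 and 3, where member 5 was low, had 1012 and 927 CPM for the same sum. In vena cava 2 and vena porta 1, where member 5 was also low, the sum was 310 and 434 CPM, and the part of the list in the member's values was not tested.

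Member 7 separated the vessels of CaPECs in 3 steps. The aortic samples were at 8.27, 43.5, and 19.3 CPM, the vena cava samples at 119, 112, and 76.6 CPM, and the vena porta samples at 275, 335, and 388 CPM, with no overlap between any of the groups. The rule fixed the separation of the aorta from both veins, and only that of vena cava and vena porta was left free. VSMCs were at 755 to 2143 CPM (median 1126), above every CaPEC sample.

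In 5 members, 4, 8, 10, 17, and 18, the venous levels lay within a factor of 1.75 of each other. Over all members this factor ranged from 1.24 to 22.8 with a median of 2.28. The limit of 1.75 was set after the values were seen and no share over all genes was computed, so nothing is read from the count. Member 10 was the most even, with 37.0, 48.8, and 40.0 CPM in the aorta and 81.9 to 101 CPM (median 94.9) in the 6 venous samples. Member 18 was close to the limit of the rule and nearly as even, with 47.9 ± 6.10 CPM in the aorta (SD, n = 3) and 90.1 ± 9.21 CPM in the veins (SD, n = 6).

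The same aortic culture was lowest in most members. Aorta 1 was the lowest of the aortic samples in 16 of the 19 members, where it was so in 43.7% of the genes with at least 5 CPM in every venous CaPEC sample. Aorta 2, the sample with the smallest total count, was the highest in 12 members (22.1% of these genes) and so set the limit for them. The lowest venous sample was spread evenly, with each of the 6 samples lowest in 3 or 4 members.

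The difference between veins and aorta was then examined in CaPECs of a dog whose CaPECs had taken no part in the choice. The rule was applied to the CaPECs and VSMCs of the other 2 numbers, and the genes it gave were read in the CaPECs left out. VSMCs of the same dog may have been among those used, since the numbers of the cell types are not tied to each other. When dog 1 was left out, 42 genes were chosen, and both veins were above the aorta in 41 of them in dog 1, where this held for 39.6% of 9459 genes with at least 5 CPM in both veins or in the aorta. Both veins were at least 1.5 times the aorta in 30 of the 42 (background 10.8%). For dog 2, 81 genes were chosen, and both veins were above the aorta in 59 (background 44.8%) and at least 1.5 times the aorta in 29 (background 7.08%). For dog 3, the numbers were 90 genes, 59 (background 30%), and 27 (background 5.29%). The median ratio of the lower vein to the aorta in the dog left out was 2.69, 1.34, and 1.14 for dogs 1, 2, and 3, beside 0.904, 0.961, and 0.839 over all genes read. The background was limited to genes with such levels in the dog left out, and the chosen genes were not. Among the chosen genes that met this limit, both veins were above the aorta in 40 of 41 for dog 1, 56 of 75 for dog 2, and 57 of 87 for dog 3, and at least 1.5 times the aorta in 29, 28, and 25. The direction thus carried over to the dog left out more often than in the background in each dog, but in dogs 2 and 3 the ratio of 1.5 was not reached by most of the genes. The 3 readings share dogs in the choice and are not independent of each other.

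**Figure D2:**
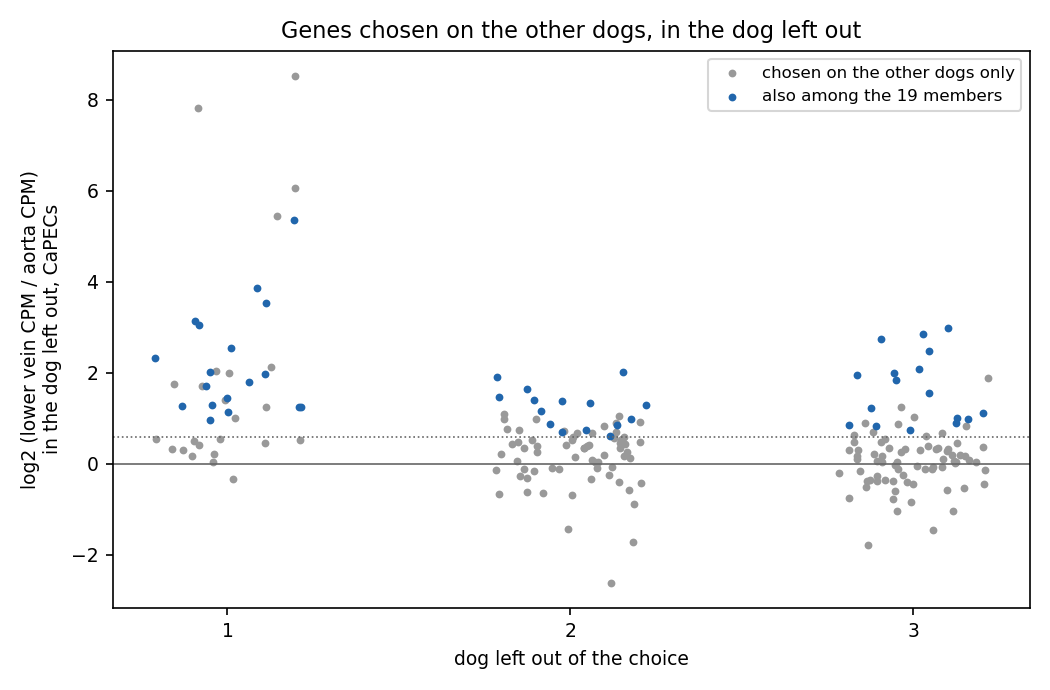
Genes chosen by the rule on the other dogs, shown in the dog left out: the log2 of the lower of vena cava and vena porta CPM over aorta CPM in CaPECs, for 42, 81, and 90 genes with dog 1, 2, or 3 left out. Each point is a gene, the solid line is equality and the dotted line a ratio of 1.5, 1 gene with no aortic count in dog 1 is drawn with 0.05 CPM, and the blue points lie above the dotted line because the full rule requires it of members.

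Within dogs, the ratio of the mean of both veins to the aorta had a median over the 19 members of 6.62 in dog 1, 3.12 in dog 2, and 3.56 in dog 3. Dog 1 had the highest of the 3 ratios in 15 members, dog 3 in 4, and dog 2 in 0. The lowest ratio of any member was 1.77, in dog 2. The rule used the values behind these ratios and no share over all genes was computed, so they are a description and nothing is read from them.

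All 19 members passed the filter on low counts of edgeR, and in its quasi-likelihood test over 11696 genes the log2 fold change of veins over aorta was between 0.82 (standard error 0.14) for member 18 and 4.39 (standard error 1.15) for member 3. Since the rule used this contrast, the calls are only a description. A call required an adjusted p-value below 0.05 with a log2 fold change beyond 0.4 in either direction, and 11 of the 19 members were called, beside 0.248% of all genes tested that were called higher in the veins. With the replicate number as a block, the count was 2 members, 8 and 10 (0.0598% of genes), and it was 0 without dog 1 (0% of genes higher in the veins) and without dog 3 (0.00857%), with all 19 higher in the veins in each of these fits. All 19 had an unadjusted p-value below 0.05 in each of them as well, beside 14% of genes with the block, 7.47% without dog 1, and 9.88% without dog 3, and likewise in the fit of all 3 dogs with no block, beside 15.1%. Without dog 2, 8 members were called, where 38 of 11905 genes were called higher in the veins. DESeq2's Wald test called all 19, where 239 of 15890 genes were called higher in the veins.

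**Figure D3:**
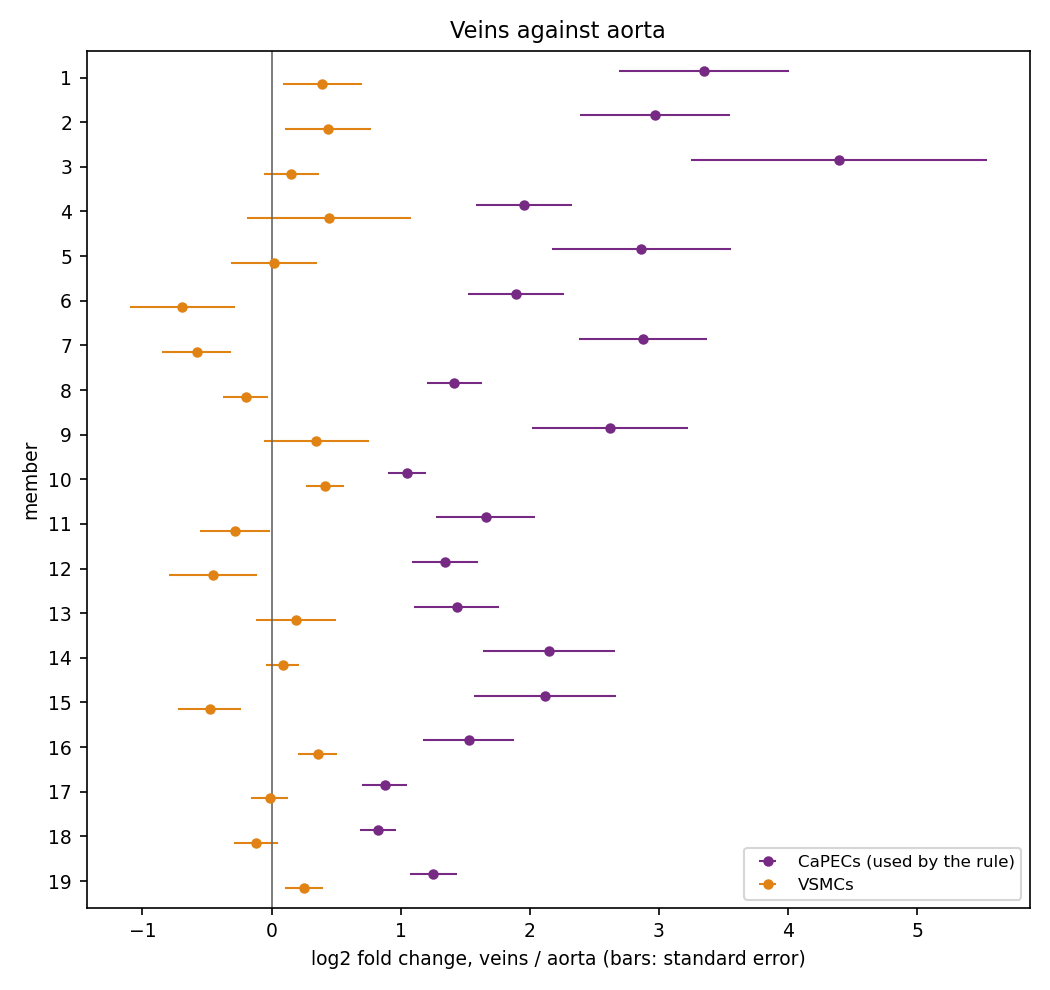
Log2 fold change of veins over aorta for each of the 19 members in CaPECs (purple, the contrast the rule used) and in VSMCs (orange), from edgeR, with bars for the standard error. The CaPEC values lie between 0.82 and 4.39, while the VSMC values lie on both sides of 0, between -0.69 and 0.44.

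In VSMCs, the rule bounds the difference between aorta and veins by column totals but does not set it to 0. The fits in edgeR used TMM scaling, under which this bound need not hold. The log2 fold change of veins over aorta was between -0.69 (standard error 0.41) for member 6 and 0.44 (standard error 0.64) for member 4. The value for member 6, with the aorta higher, lay beyond the limit of the rule. In edgeR's test 0 of the 19 members were called, beside 0.462% of 11484 genes, and 2 had an unadjusted p-value below 0.05, as did 12.5% of all genes tested. With the replicate number as a block the count was still 0, beside 3.7% of genes, with 6 members at an unadjusted p-value below 0.05 (18.8% of genes), and DESeq2's Wald test also called 0, beside 2.22% of genes. Member 10 illustrates the limit, since it was at 24.5, 27.1, and 28.6 CPM in the aorta, 36.2, 34.0, and 35.3 CPM in the vena cava, and 42.2, 54.8, and 37.4 CPM in the vena porta. Its venous VSMCs were all above the aortic ones, the direction seen in CaPECs, and its adjusted p-value was 0.270 in edgeR. The mean of both veins was above the aorta in all 3 sample numbers in 8 members, and below it in all 3 in member 7 alone. By column totals the veins were above the aorta in all 3 numbers in 44.9% of the genes with at least 5 CPM in every venous CaPEC sample and below it in 9.35%. The rule limits this ratio for the members and not for these genes, so nothing is read from the counts. After TMM scaling, the median log2 fold change in VSMCs was 0.09 for the members and 0.01 over all genes tested.

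The difference between the cell types, tested in edgeR as an interaction over all 18 samples, was called for 2 members, 7 and 8, beside 0.155% of 12288 genes called in this direction. The rule used both contrasts, so this too is a description. With the replicate number as a block 8 members were called, beside 0.309% of genes, and without the CaPECs of vena cava 1 and 3 the count was 5, beside 0.309% of genes in that fit too.

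Every member was also read in VSMCs, so that the name endothelial applies to the difference between vessels and not to the presence of the transcript. In 15 of the 19 members, all 9 VSMC samples lay above all 3 aortic CaPEC samples, where this held for 7.5% of the genes with at least 5 CPM in every venous CaPEC sample. The ceiling that the rule sets on aortic CaPECs bears on this count. For comparison, among the 86 genes that the exchanged rule gave as higher in the aorta, all 9 VSMC samples lay above all 6 venous CaPEC samples, the low side there, in 10 genes or 11.6%, and all VSMC samples were under 2 CPM in 16 genes, against 0 of the 19 members. The low side had 6 samples for these genes and 3 for the members, and both rules used the CaPEC values compared. The shares are thus not like for like, were not tested against each other, and nothing is read from them.

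Against venous CaPECs, the VSMC levels of the members fell on either side. The VSMC mean was above the venous CaPEC mean in 8 members and below it in 11, and in 9 of the 11 it was still above the aortic mean. The ranges of VSMCs and venous CaPECs overlapped in 14 members. All VSMC samples were above all venous CaPEC samples in 2 members, 5 and 7 (background 2.41%), and below them in 3 members (background 16.6%). In edgeR's comparison of all CaPECs with all VSMCs, 12 members were called higher in VSMCs, beside 18.1% of 12288 genes, and 2 members, 4 and 10, higher in CaPECs, beside 19.3%. The rule sets a floor and a ceiling on the CaPEC side of this comparison, so that nothing is read from the counts.

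The rule treats the veins alike, so the contrast of vena cava and vena porta is one it did not use. In CaPECs, edgeR's test called 0 of the 19 members, beside 0.00855% of 11696 genes, and DESeq2's Wald test called 2, beside 2.12% of genes. In edgeR, 4 members had an unadjusted p-value under 0.05, as did 11.7% of all genes tested. The median absolute log2 fold change was 0.38 over the members and 0.30 over all genes tested. The 2 members that DESeq2 called differed in direction. For member 5, with the values given above, the log2 fold change of vena cava over vena porta was 2.52 (standard error 0.71, adjusted p = 0.258 in edgeR, adjusted p = 0.0110 in DESeq2). For member 7 it was -1.76 (standard error 0.50, adjusted p = 0.262 in edgeR, adjusted p = 0.0205 in DESeq2).

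The contrast of the veins depended on dog 2. Without it, edgeR called members 2 and 5 higher in the vena cava, beside 5.37% of genes, with log2 fold changes of 1.68 and 3.15. Without the CaPECs of vena cava 1 and 3 their log2 fold changes were -0.40 and 0.31, and neither was called, in a fit that takes the lone vena cava sample to vary like the other groups. For member 3 the value was -2.19 (standard error 1.06) with an adjusted p of 0.459 in edgeR, and it was 0.45 without dog 3. In 5 members, 1, 2, 5, 13, and 19, the vena cava samples of dogs 1 and 3 lay above all 7 other CaPEC samples, beside 18.2% of the genes with at least 5 CPM in every venous CaPEC sample. The rule had already placed them above the 3 aortic samples, so nothing is read from this count. All 3 vena cava samples were above all 3 vena porta samples in 2 members, 5 and 19 (background 10.9%), and below them in 1, member 7 (background 4.52%). Member 19 was at 59.3, 51.3, and 66.6 CPM in the vena cava and at 38.3, 42.0, and 34.4 CPM in the vena porta, and its log2 fold change was 0.56 (standard error 0.20, adjusted p = 0.335 in edgeR).

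**Figure D4:**
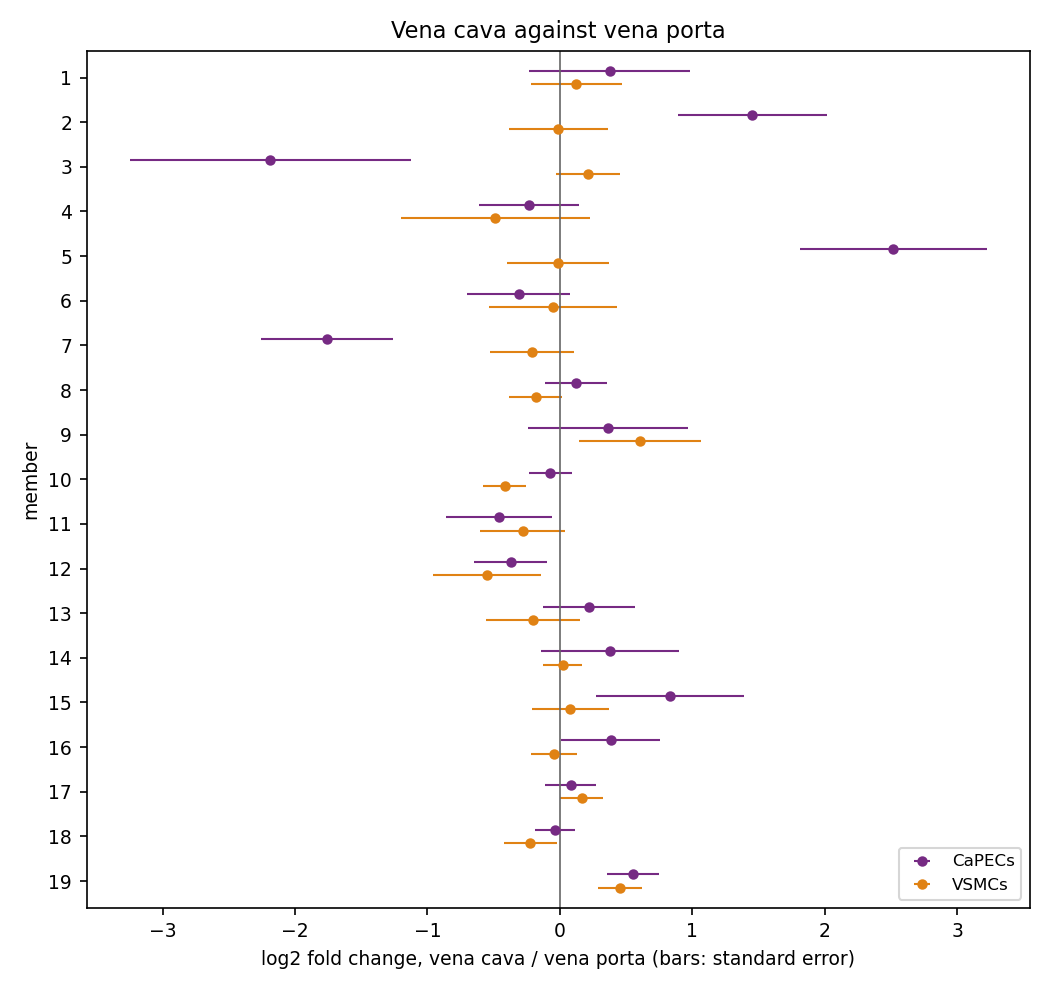
Log2 fold change of vena cava over vena porta for each of the 19 members in CaPECs (purple) and VSMCs (orange), from edgeR, with bars for the standard error. In CaPECs members 2 and 5 lie to the right, at 1.45 and 2.52, and members 3 and 7 to the left, at -2.19 and -1.76, while VSMC values stay between -0.55 and 0.61.

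In VSMCs, the median absolute log2 fold change between the veins was 0.20 over the members and 0.16 over all genes tested. Vena cava and vena porta gave log2 fold changes between -0.55 (standard error 0.41) for member 12 and 0.61 (standard error 0.46) for member 9. EdgeR's test called 0 of the 19 members, beside 0.00871% of 11484 genes, 2 members had an unadjusted p-value below 0.05, beside 5.19% of genes, and DESeq2's Wald test called 0, beside 0.439% of genes. Member 19, one of those 2, had the order seen in CaPECs, at 90.7, 66.7, and 75.5 CPM in the vena cava and 59.3, 50.2, and 51.8 CPM in the vena porta (log2 fold change 0.46, standard error 0.17, adjusted p = 0.807 in edgeR).

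VSMCs of different isolations differed in several members. With the vessel in the model, edgeR's test of the isolation called 4 of the 19 members, 2, 5, 6, and 9, beside 6.44% of 11484 genes. In the order aorta, vena cava, vena porta, member 9 was at 126, 172, and 149 CPM in isolation 1, at 209, 251, and 212 CPM in isolation 2, and at 248, 581, and 295 CPM in isolation 3 (adjusted p = 0.0101 in edgeR). Isolation 1 was thus lowest and isolation 3 highest in each vessel. Member 5 was lowest in isolation 2, at 333, 430, and 442 CPM, against 549 to 735 CPM in isolation 1 and 586 to 860 CPM in isolation 3 (adjusted p = 0.0369 in edgeR). Without isolation 1, 6 members were called (9.02% of genes). Without isolation 2, only member 9 was called (1.15% of genes), and without isolation 3 the count was 0 (1.21% of genes), with 7 members at an unadjusted p-value under 0.05 (15.6% of genes).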

How the data were processed

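RNA was sequenced from 9 CaPEC and 9 VSMC samples. The authors aligned the reads to CanFam3.1 with STAR 2.4.2a, counted them per Ensembl gene with HTSeq-count 0.6.1p1 in union mode, and deposited the raw counts without normalization or pooling of replicates. Libraries came from a directional kit, but the strand setting of the counting and the annotation release are not given in the sources used here. Overlapping genes and near-identical copies may therefore share or lose reads, and no member could be checked for this.

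CPM was computed from the deposited counts by column totals. Tests used edgeR 4.0.16 in R 4.3.3 (TMM normalization, filterByExpr with a minimum count of 10, glmQLFit, and glmQLFTest) over all genes, with Benjamini-Hochberg adjustment, and genes were called at an adjusted p-value below 0.05 and, except for the test between isolations, an absolute log2 fold change above 0.4. Standard errors were derived from the F statistic. DESeq2 1.42.0 was an alternative. The edgeR fits were also run on simulated counts, in which each sample was drawn independently. The outcome is not given here, and it does not vouch for calls that depend on single dogs or cultures.

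The members, lists, and comparisons were chosen with earlier results of these data known. Identifiers were to be printed for the 2 members of highest ratio and for members called between the veins; the other members are given by number, and those singled out were chosen after their values were seen. Marker lists set by symbol could not be matched to the identifiers and gave no result.

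Same-numbered samples of a cell type carry the same number in the headings (for VSMCs, an isolation number) and were paired, since the study names 3 donors. Their deviations from the group means had a mean correlation over 9 pairs of -0.02 in CaPECs (-0.28 to 0.21) and 0.32 in VSMCs (0.10 to 0.48). The total counts, 6020932 to 15746769, set the precision, and the smallest makes 5 CPM about 30 counts, so low members are less precise.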

Additional observations from a re-analysis of the deposited data

Results flagged for a closer look

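Dixon's test was applied to the extremes of 38 groups, namely the 6 venous CaPEC and the 9 VSMC samples of each member. If each group came from 1 normal distribution, chance alone would pick out about 1 in 20 groups (1.9 here), and 3 had a sample apart from the rest. The groups pool vessels and dogs or isolations, and the rule set a floor on the venous samples, so this rate need not hold. Member 3 was at 855 CPM in CaPECs of vena porta 3, against 111 CPM in the next highest venous sample. Member 7 was at 2143 CPM in VSMCs of aorta 1, against 1304 CPM in the next highest, and member 9 was at 581 CPM in VSMCs of vena cava 3, against 295 CPM.

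The difference between veins and aorta was not the same in CaPECs and VSMCs for 2 members in edgeR's interaction test, by 3.47 on the log2 scale for member 7 (standard error 0.57, adjusted p = 0.0114) and by 1.62 for member 8 (standard error 0.28, adjusted p = 0.0152). The rule that chose the members used both differences, so this is not independent of the choice.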

How the results depend on the processing

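The number of members is set by the rule. It was 5 with a ratio of at least 2, 50 without the CaPECs of vena cava 1 and 3 (added after seeing the data, and bound to keep all 19), and 42 to 90 with each dog left out, where fewer samples make the rule easier to pass, with 18, 15, and 17 of the 19 kept without dogs 1, 2, and 3. With TMM-scaled library sizes it was 13, of which 12 were among the 19, and members 6, 7, and 15 to 19 were lost. Over the 3 dogs left out, both veins were above the aorta in 159 of 213 choices, in 45 of 59 with a ratio of at least 2, and in 115 of 163 with TMM-scaled library sizes. For vena cava against vena porta in CaPECs, DESeq2 called 2 members and the fits without a dog 0 to 2. For aorta against veins in CaPECs, DESeq2 called 19, the replicate block 2, and the fits without a dog 0 to 8. For the isolations of VSMCs, DESeq2 and the fit without a filter called 7 each, and the fits without an isolation 0 to 6. The interaction gave 8 members with the replicate block and 5 without the CaPECs of vena cava 1 and 3. The block moved no other count of called members by over 1.5 times, and the causes of these changes were not tested. Over all genes, the calls between vena cava and vena porta were 1 in CaPECs (337 by DESeq2, 3 without a filter, 0 with the replicate block) and 1 in VSMCs (70, 5, and 57). The calls between aorta and veins were 182 in CaPECs (669 by DESeq2, 73 with the block) and 53 in VSMCs (354 by DESeq2, 107 without a filter, 425 with the block). Between isolations of VSMCs they were 740 (1143 by DESeq2, 1197 without a filter), and for the interaction 64 (111 with the block, 186 without the CaPECs of vena cava 1 and 3). Without number 1, 2, or 3 in turn, the calls between aorta and veins were 1, 204, and 22 in CaPECs and 0, 0, and 1 in VSMCs, those between the veins were 0, 639, and 0 in CaPECs and 0, 0, and 1 in VSMCs, and those between isolations were 1044, 134, and 140. The ratio of means of member 3 was 10.1 without vena porta 3, also added after seeing the data. The replicate numbers were used as a block within each cell type only. With 3 samples per group, differences near the spread between samples were not detectable.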
